A study of Homo sapiens with 27 samples.

Results

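Vemurafenib was compared with trametinib in A375 cells that had lost TADA2B. A375 is an established human melanoma line whose BRAF kinase carries an activating mutation, and TADA2B is a subunit of SAGA, a nuclear complex that acetylates histones at gene promoters. The comparison takes 12 of the 27 RNA sequencing libraries of the series, chosen by their labels alone. These are 6 libraries of knockout cells given 1 µM vemurafenib and 6 given 20 nM trametinib, and within each drug 3 libraries carry TADA2B guide 1 and 3 carry TADA2B guide 2. Also used are 6 knockout libraries given the solvent DMSO, 3 for each guide, and 9 libraries of control cells with a guide against GFP, 3 for each of DMSO, trametinib and vemurafenib. All treatments lasted 24 h, and all cells share the BRAF-mutant A375 background. The labels give the control cells the genotype WT, and the treatment notes describe them as having a guide without a target. They do not say whether the knockouts are clones or pools. Nothing in them says that the 3 libraries of a group were grown as separate cultures, and the p-values therefore rest on a spread between libraries that may be technical.

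In BRAF-mutant melanoma the kinase cascade from BRAF through MEK to ERK is always on. ERK switches on genes that drive the cell cycle, and also genes whose products brake the cascade, such as the Sprouty proteins and the DUSP phosphatases. The level of these feedback genes is a common measure of how much ERK signalling is left under a drug. Vemurafenib inhibits mutant BRAF and trametinib inhibits MEK, the next kinase down. The drugs act on different kinases and were given at 1 dose each, so a difference between them cannot be told apart from a difference in effective dose.

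Per gene, the difference between the drugs was taken within each guide and averaged over both, as vemurafenib minus trametinib on the log2 scale. Positive values mean more RNA with vemurafenib. A gene was called when edgeR's quasi-likelihood test gave it a Benjamini-Hochberg adjusted p under 0.05, with the adjustment made over the 25199 genes tested. Levels are in CPM, the counts of a gene rescaled to a common library size by library total and TMM factor, and an error after a log2 value is its standard error. In bulk RNA, fewer cells of a kind and less RNA per cell cannot be told apart.

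The 12 libraries held between 67502300 and 92513726 counts each. On a principal component analysis of these libraries, component 1 held 37.6% of the variance and component 2 held 27.9%. Component 1 set the guides apart, and also the drugs within each guide. Component 2 set the drugs apart, and also the guides within each drug. The test called 4826 genes, which is 19.2% of those tested, 2736 of them higher with vemurafenib (10.9%) and 2090 lower (8.29%). Most of these differences were small, with a median absolute log2 difference of 0.21 among called genes. At least 2-fold differences were called in 362 genes (1.44%), 236 higher and 126 lower, and in 167 genes when at least 1 CPM in at least 3 libraries was required. Each guide alone gave 3298 called genes for guide 1 (13.1%) and 2795 for guide 2 (11.1%), and 1916 genes were called with both guides in the same direction, 1094 higher (4.34%) and 822 lower (3.26%). These are 58.1% of the guide 1 calls and 68.6% of the guide 2 calls, and 1 gene was called in opposite directions. Mitochondrially encoded genes took 3.16% to 3.60% of the counts with vemurafenib and 3.13% to 3.58% with trametinib.

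**Figure D1:**
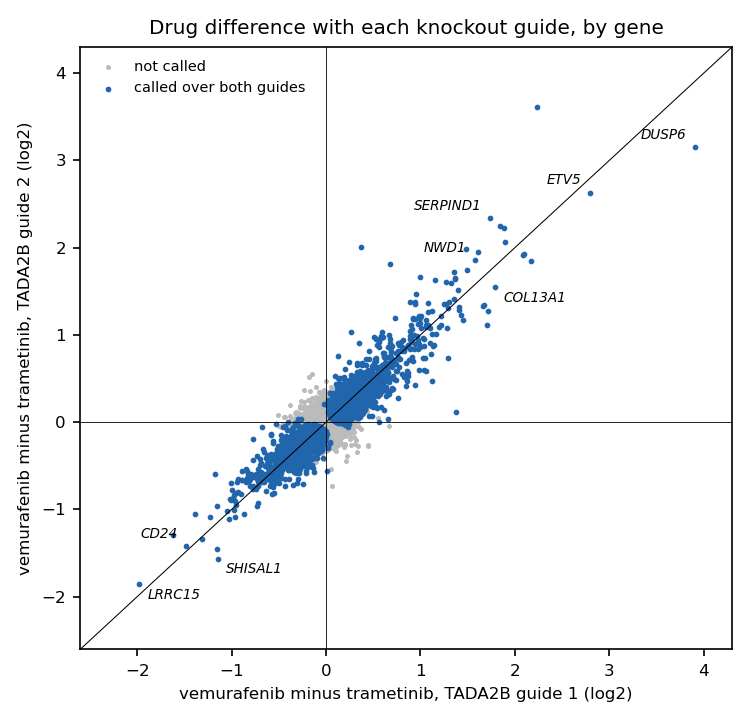
The difference vemurafenib minus trametinib on the log2 scale with TADA2B guide 1 (x axis) and guide 2 (y axis) for the 14252 genes that average at least 1 on the log2 CPM scale; each point is a gene, blue points were called over both guides, and the diagonal marks equal values. DUSP6 lies far to the upper right and LRRC15 to the lower left with either guide, and the Pearson r across these genes, which are not independent replicates, was 0.84.

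TADA2B itself (ENSG00000173011, chromosome 4, 7041899 to 7057952, hg38) did not separate the drugs. It lay between 27.6 and 33.8 CPM in the 6 vemurafenib libraries of knockout cells and between 28.8 and 35.7 CPM in the 6 trametinib libraries (log2 -0.07 ± 0.03, adjusted p = 0.101). The transcript of an edited gene can persist, so its level does not check the genotype. The difference became a call with library totals alone, with DESeq2's Wald test and with a stricter filter on low counts, and its 95% interval ran from -0.13 to -0.01. The upstream kinases that the drugs bind were close to equal as well. BRAF had a log2 difference of -0.01 (95% interval -0.07 to 0.05), MAP2K1, which encodes MEK1, 0.01 (-0.04 to 0.07), and MAP2K2, which encodes MEK2, 0.01 (-0.04 to 0.07), none of them called.

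The largest difference among the genes named by rule was in ERK's own phosphatase. DUSP6 (ENSG00000139318, chromosome 12, 89347232 to 89353271, minus strand) encodes a cytoplasmic phosphatase that inactivates ERK. With guide 1 it stood at 11.1, 12.7 and 12.5 CPM in vemurafenib and at 0.867, 0.777 and 0.777 CPM in trametinib. With guide 2 it stood at 6.01, 6.14 and 7.10 CPM in vemurafenib and at 0.578, 0.869 and 0.702 CPM in trametinib. No vemurafenib library overlapped a trametinib library, and DUSP6 was 11.5-fold higher with vemurafenib (log2 3.53 ± 0.06, adjusted p = 1.77e-39). Both drugs had taken DUSP6 far below its level in DMSO, which lay between 159 and 185 CPM in knockout cells. The DUSP6 RNA left was 6.58% of the DMSO mean with vemurafenib and 0.439% with trametinib for guide 1, and 3.88% and 0.433% for guide 2.

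Of the 10 MAPK phosphatase genes, 5 were higher with vemurafenib, 4 lower and 1 not called, with a median log2 difference of 0.09 against 0.01 over all genes tested. DUSP4, a nuclear ERK phosphatase, lay between 74.9 and 120 CPM in vemurafenib and between 23.1 and 46.8 CPM in trametinib, with no overlap (log2 1.51 ± 0.02, adjusted p = 1.15e-42). DUSP5, which also acts on nuclear ERK, was higher with a smaller margin (log2 0.52 ± 0.04). DUSP8, whose product prefers the stress kinases JNK and p38, went the other way (log2 -0.71 ± 0.15, adjusted p = 0.000287), at 0.966 to 1.71 CPM in vemurafenib against 1.62 to 2.62 CPM in trametinib. The list as a whole therefore had no common direction, and the ERK phosphatases DUSP6, DUSP4 and DUSP5 were its higher members among those named.

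Sprouty and SPRED proteins brake the signal between receptors and RAF. Of 7 such genes 6 were higher with vemurafenib, each also with either guide alone and each at least 2-fold, and SPRY3 was not called (log2 0.08). SPRY4 (ENSG00000187678, chromosome 5, 142310427 to 142326455, minus strand) stood at 3.87, 3.84 and 4.12 CPM with guide 1 in vemurafenib against 1.09, 0.992 and 1.24 CPM in trametinib. With guide 2 the SPRY4 values were 3.52, 3.78 and 3.90 CPM against 0.881, 0.639 and 0.831 CPM, and the difference was 4.12-fold over both guides (log2 2.04 ± 0.06, adjusted p = 3.73e-30). SPRY1 differed by 2.01 ± 0.11, SPRY2 by 1.5 ± 0.04 and SPRED3 by 1.46 ± 0.04 on the log2 scale, and in each of the 3 genes all 6 vemurafenib libraries lay above all 6 trametinib libraries. Over all genes tested such a full separation upward was seen in 795 genes, 3.15%. SPRY4 in DMSO lay between 116 and 197 CPM, so both drugs left only a few percent of it, 2.03% against 0.571% with guide 1 and 3.13% against 0.658% with guide 2.

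Of 15 ETS and EGR factors 8 were higher with vemurafenib, 3 lower and 4 not called. ETV5 (ENSG00000244405, chromosome 3, 186046308 to 186110318, minus strand), an ETS factor of the PEA3 group, stood at 8.63, 9.93 and 9.91 CPM with guide 1 and 7.72, 8.64 and 8.32 CPM with guide 2 in vemurafenib. In trametinib ETV5 stood at 1.28, 1.43 and 1.40 CPM with guide 1 and 1.40, 1.09 and 1.49 CPM with guide 2, which is 6.54-fold less (log2 2.71 ± 0.06, adjusted p = 3.44e-37). ETV4 and ETV1, the other PEA3 members, differed by 1.51 ± 0.06 and 1.11 ± 0.03. EGR2, an immediate early zinc finger factor, differed by 1.99 ± 0.28 but was under 1 CPM in all 12 libraries.

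Other genes that ERK signalling drives were higher with vemurafenib in 18 of 32, lower in 2 and not called in 12, and their median was 0.28. PHLDA1, an ERK-induced gene of the pleckstrin-like family, lay between 466 and 694 CPM in vemurafenib and between 157 and 273 CPM in trametinib (log2 1.51 ± 0.03, adjusted p = 1.2e-39). MYC, a driver of growth, was low in both drugs, at 1.25 to 2.38 CPM against 0.819 to 1.16 CPM (log2 0.79 ± 0.10). VGF, a secreted neuropeptide precursor, and EMP1, a membrane protein, differed by 0.77 ± 0.03 and 0.69 ± 0.02. Cyclin D1, encoded by CCND1, drives entry into S phase. CCND1 lay between 47.5 and 54.5 CPM in vemurafenib and between 36.5 and 39.2 CPM in trametinib, with no overlap (log2 0.45 ± 0.02, adjusted p = 2.19e-20), against 241 to 380 CPM in DMSO. The 24 genes of the MAPK cascade itself were split, 5 higher and 5 lower, and none reached 2-fold: the kinase RPS6KA3 differed by 0.22 ± 0.02 and the scaffold KSR2 by -0.22 ± 0.05.

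The AP-1 group of transcription factors, built of JUN, FOS and ATF subunits and often induced by stress, went mostly the other way. Of 14 members 9 were lower with vemurafenib, 3 higher and 2 not called, and the median was -0.22. ATF3 (ENSG00000162772, chromosome 1, 212565334 to 212620777, plus strand) stood at 19.3, 21.9 and 19.9 CPM with guide 1 in vemurafenib and at 41.4, 39.6 and 38.3 CPM in trametinib. With guide 2 it stood at 11.6, 11.5 and 11.7 CPM against 21.7, 21.8 and 21.7 CPM, so the drugs were apart within each guide, although the ranges over both guides overlap slightly (log2 -0.94 ± 0.04, adjusted p = 2e-26). JUN (ENSG00000177606, chromosome 1, 58780788 to 58784327, minus strand) stood at 128, 132 and 130 CPM against 205, 211 and 207 CPM with guide 1, and at 59.6, 59.4 and 57.2 CPM against 92.2, 96.2 and 95.6 CPM with guide 2 (log2 -0.68 ± 0.03). Both genes were above their DMSO levels in either drug: ATF3 lay between 3.09 and 4.65 CPM and JUN between 12.6 and 17.7 CPM in DMSO. FOS and FOSL2 were lower with vemurafenib by -0.90 ± 0.05 and -0.85 ± 0.02. FOS in vemurafenib was 98.9% of its DMSO mean with guide 1 and 75.8% with guide 2, and in trametinib 194% and 135%.

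**Figure D2:**
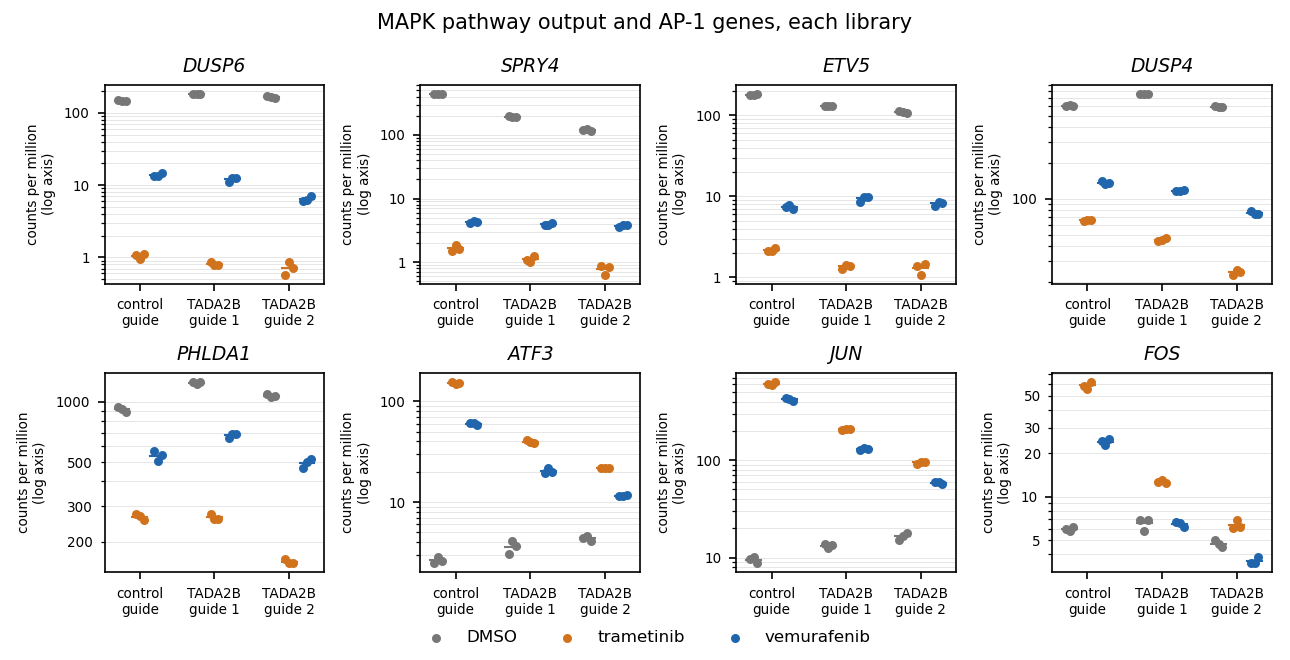
CPM (log axis) of 8 genes in each library, by cell population on the x axis and by treatment in colour; points are libraries and short lines are means of 3. In both knockout populations DUSP6, SPRY4, ETV5, DUSP4 and PHLDA1 lie higher with vemurafenib than with trametinib and below DMSO, while ATF3 and JUN lie highest with trametinib and lowest in DMSO.

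Beyond these lists, the 12 largest rises with vemurafenib among protein-coding genes held secreted and surface proteins beside DUSP6, ETV5, SPRY4 and SPRY1. MAP2, a microtubule protein of neurons, lay between 18.2 and 32.1 CPM in vemurafenib and between 3.67 and 8.58 CPM in trametinib (log2 2.01 ± 0.06, adjusted p = 6.56e-30). MAP2 in trametinib was near its DMSO level of 4.44 to 7.56 CPM, and in vemurafenib it was 412% of the DMSO mean with guide 1 and 451% with guide 2. CDH11 (ENSG00000140937, chromosome 16, 64943753 to 65126112, minus strand), a cadherin of mesenchymal cells, stood at 3.65, 4.56 and 4.65 CPM with guide 1 and 5.68, 5.25 and 5.67 CPM with guide 2 in vemurafenib, and between 1.00 and 1.41 CPM in trametinib (log2 1.98 ± 0.09, adjusted p = 2.58e-23). CEACAM1, an adhesion molecule, lay at 5.34 to 6.25 CPM against 1.47 to 1.97 CPM (log2 1.78 ± 0.08). It belongs to a family of similar genes, so its value is uncertain where reads could be shared. NWD1 lay at 13.5 to 15.6 CPM against 4.10 to 5.41 CPM (log2 1.72 ± 0.06), which in vemurafenib was about its DMSO level of 13.0 to 14.3 CPM.

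The other 4 of these 12 were scarce in both drugs. The minimum level for a gene to be named was set on its average over all 27 libraries, DMSO included. COL13A1, a transmembrane collagen, lay at 1.28 to 1.82 CPM in vemurafenib and 0.389 to 0.678 CPM in trametinib (log2 1.67 ± 0.12). CXCL8, a chemokine that attracts neutrophils, lay at 0.373 to 0.819 CPM and 0.0667 to 0.209 CPM (log2 2.06 ± 0.26), against 33.7 to 42.0 CPM in DMSO. SERPIND1, a thrombin inhibitor, lay at 0.290 to 0.747 CPM and 0.0767 to 0.186 CPM (log2 2.04 ± 0.23). SLC24A2, a sodium, potassium and calcium exchanger, differed by 2.00 ± 0.19. Over both guides the ranges of the drugs overlapped, at 0.353 to 1.28 CPM in vemurafenib and 0.0826 to 0.411 CPM in trametinib. So for these genes the folds rest on few counts. The drugs were apart within each guide, but this was a condition for a gene to be named here.

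Among the 12 largest falls with vemurafenib, most genes were higher in trametinib than in DMSO. LRRC15 (ENSG00000172061, chromosome 3, 194355247 to 194369743, minus strand), a membrane protein of activated fibroblasts, stood at 2.69, 2.59 and 2.36 CPM with guide 1 and 1.67, 2.17 and 1.86 CPM with guide 2 in vemurafenib. In trametinib LRRC15 stood at 10.5, 9.90 and 9.69 CPM and at 7.44, 6.27 and 6.95 CPM (log2 -1.92 ± 0.07, adjusted p = 3.89e-27), and in DMSO between 1.43 and 2.23 CPM. MAP1LC3C, an autophagy protein, lay at 14.3 to 29.5 CPM in vemurafenib, 43.0 to 70.9 CPM in trametinib and 0.860 to 1.54 CPM in DMSO (log2 -1.46 ± 0.05). CD24, a surface glycoprotein, followed at 15.9 to 26.6 CPM, 46.7 to 70.4 CPM and 0.880 to 1.91 CPM (log2 -1.45 ± 0.05); it has near-identical processed copies in the genome, so its counts are uncertain. EOMES, a T-box transcription factor, lay at 5.89 to 7.00 CPM, 13.2 to 18.5 CPM and 1.13 to 1.93 CPM (log2 -1.30 ± 0.05), and RAB3B, a GTPase of secretory vesicles, at 28.7 to 37.6 CPM, 58.9 to 78.7 CPM and 17.5 to 20.8 CPM (log2 -1.03 ± 0.04). AGT, the angiotensin precursor, was almost without counts in DMSO, at 0.0135 to 0.0366 CPM, and lay at 1.62 to 2.50 CPM in vemurafenib against 4.29 to 5.13 CPM in trametinib (log2 -1.15 ± 0.10).

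SHISAL1 (log2 -1.36 ± 0.10) and IGFN1 (-1.33 ± 0.12) were also lower with vemurafenib than in DMSO, by -0.42 ± 0.11 and -1.10 ± 0.13 on the log2 scale. IGFN1 did not pass the test of trametinib against DMSO (0.23, adjusted p = 0.073). It lay at 1.77 to 3.35 CPM in vemurafenib against 3.87 to 6.73 CPM in DMSO and 4.42 to 8.50 CPM in trametinib. SHISAL1 lay at 0.920 to 2.04 CPM in vemurafenib, 1.37 to 2.30 CPM in DMSO and 2.74 to 3.93 CPM in trametinib. The remaining falls were MUC16, a cell surface mucin (-1.22 ± 0.11), the oviduct glycoprotein OVGP1 (-1.07 ± 0.10), KCP, a secreted regulator of BMP signals (-1.06 ± 0.10), and the G protein subunit GNAZ (-1.02 ± 0.08). Each of these 4 genes was at least 2-fold lower with vemurafenib. Libraries of the drugs that lay apart within each guide were a condition for being named among the rises and falls. Of all genes tested 5.51% met it on the lower side and 6.67% on the higher.

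Genes of G2 and mitosis were higher with vemurafenib almost throughout. Of the 30 genes tested 29 were called higher and 0 lower, by log2 differences between 0.09 and 0.43, and NUSAP1 was not called (0.16). Their median was 0.23, against 0.01 over all genes tested, and 21 of the 29 were also called with each guide alone. CENPA, the histone that marks centromeres, lay at 3.29 to 4.55 CPM in vemurafenib and 2.02 to 3.39 CPM in trametinib (log2 0.43 ± 0.07, adjusted p = 3.81e-06). UBE2C, which helps the cell leave mitosis, and the survival and chromosome passenger protein gene BIRC5 differed by 0.34 ± 0.04 and 0.33 ± 0.04. TOP2A, the topoisomerase that untangles sister chromosomes, lay at 88.2 to 104 CPM against 64.7 to 84.7 CPM, with no overlap (log2 0.33 ± 0.02, adjusted p = 5.9e-17). These are small differences between low levels: TOP2A in DMSO lay between 453 and 494 CPM, and 19.8% of it was left with vemurafenib and 15.0% with trametinib for guide 1, 20.6% and 17.1% for guide 2.

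The promoters of mitotic genes are known for the CCAAT box, which binds the factor NF-Y. The 5 stretches printed here are of G2 and mitosis genes that were higher with vemurafenib: CENPA and TOP2A from the 4 largest differences, and CCNB2, CDC20 and CENPF, which were picked after their values were seen because their promoters hold several boxes. They come from the RefSeq promoter table (GRCh38.p14), run in the direction of the gene, and are the last 150 bases upstream of the start that lie outside exons of the same strand. Capitals mark CCAAT or its reverse complement ATTGG.
CENPA: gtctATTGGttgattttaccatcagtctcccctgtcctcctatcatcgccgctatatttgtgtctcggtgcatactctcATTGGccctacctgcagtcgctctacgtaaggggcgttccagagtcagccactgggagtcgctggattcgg
TOP2A: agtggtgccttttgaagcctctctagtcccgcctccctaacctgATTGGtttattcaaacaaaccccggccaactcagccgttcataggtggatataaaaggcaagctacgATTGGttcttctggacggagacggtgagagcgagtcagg
CCNB2: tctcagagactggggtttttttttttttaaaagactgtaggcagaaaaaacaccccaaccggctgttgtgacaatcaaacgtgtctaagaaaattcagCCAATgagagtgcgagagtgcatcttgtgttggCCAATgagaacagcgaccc
CDC20: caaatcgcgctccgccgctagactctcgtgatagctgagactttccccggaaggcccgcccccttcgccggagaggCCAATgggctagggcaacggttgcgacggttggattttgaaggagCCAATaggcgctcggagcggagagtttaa
CENPF: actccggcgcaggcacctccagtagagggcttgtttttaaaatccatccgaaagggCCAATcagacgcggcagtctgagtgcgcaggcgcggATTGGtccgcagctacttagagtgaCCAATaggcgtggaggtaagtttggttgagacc
Their positions are chr2:26785847-26785996 (plus strand), chr17:40417951-40418100 (minus strand), chr15:59104928-59105077 (plus strand), chr1:43358805-43358954 (plus strand) and chr1:214603045-214603194 (plus strand). CENPA, TOP2A, CCNB2 and CDC20 each hold 2 matches and CENPF holds 3.

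Over the 250 bases before the start, CCAAT on either strand was present in 25 of the 30 promoters listed for 24 genes of the G2 and mitosis list, 83.3%, and in 32% of all 35116 promoters of the table. The ETS core CGGAAG, searched the same way, was present in 36.7% of these promoters and in 16.5% of all. Of the genes whose stretches are printed, CCNB2, a mitotic cyclin, differed by 0.19 ± 0.03, CDC20, an activator of the anaphase-promoting complex, by 0.29 ± 0.03, and CENPF, a kinetochore protein, by 0.23 ± 0.02. A match is a description of the letters and does not show that a factor was bound in these cells.

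Genes of S phase were less uniform. Of 36 tested 17 were higher, 2 lower and 17 not called, with a median of 0.09. MCM10, a replication initiation factor, and RRM2, which makes deoxynucleotides, differed by 0.56 ± 0.09 and 0.45 ± 0.05, and GINS3, part of the replicative helicase, by -0.27 ± 0.05. The value of CDC45, 0.31 ± 0.10, is less certain, since its call was lost in 9 of 21 other settings. Of 39 MYC targets and ribosome biogenesis genes 20 were higher and 1 lower, by small margins: the largest were NOP16 and NOC3L, nucleolar proteins, at 0.23 ± 0.04 and 0.23 ± 0.03, and the median was 0.07. Oxidative phosphorylation genes had 12 of 36 higher and 0 lower (median 0.07). This is a share of 33.3% called, not far above the 27.1% of protein-coding genes.

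MHC class II molecules present peptides to helper T cells, and melanoma cells can express them. The transactivator CIITA switches the group on. With vemurafenib 14 of the 16 genes tested were higher and 0 lower, 13 of them with each guide alone, by log2 differences between 0.12 and 0.64, and the median was 0.22. CIITA (ENSG00000179583, chromosome 16, 10866222 to 10943021, plus strand) stood at 110, 116 and 114 CPM with guide 1 in vemurafenib against 83.9, 87.2 and 81.1 CPM in trametinib. With guide 2 it stood at 61.4, 61.0 and 59.5 CPM against 47.8, 43.1 and 45.3 CPM (log2 0.43 ± 0.03, adjusted p = 3.13e-18). The guides differ in level, but within each guide the drugs did not overlap. HLA-DOA (ENSG00000204252, chromosome 6, 33004178 to 33009612, minus strand), which tunes peptide loading, had the largest difference of the list, at 28.1, 29.4 and 26.8 CPM against 19.1, 17.6 and 18.3 CPM with guide 1 and 13.5, 13.5 and 13.2 CPM against 8.37, 8.11 and 8.93 CPM with guide 2 (log2 0.64 ± 0.04). HLA-DMB, of the peptide exchange factor, differed by 0.52 ± 0.04 and HLA-DOB, the partner of HLA-DOA, by 0.45 ± 0.12. The protease gene CTSS (-0.04) and IFI30 (-0.58) were not called. HLA genes resemble each other and vary between people, so the split of reads among them is uncertain.

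Class II promoters carry a conserved module near the start that ends in a CCAAT type box. The 3 stretches below show it for HLA-DOA and HLA-DOB, from the 4 largest differences of the list, and for HLA-DMA (log2 0.24 ± 0.02), added after the values were seen. HLA-DMB, its partner and the second largest difference of the list, is not printed and has 0 matches in the stretch of the same length. Source, direction and capitals are as for the mitotic genes.
HLA-DOA: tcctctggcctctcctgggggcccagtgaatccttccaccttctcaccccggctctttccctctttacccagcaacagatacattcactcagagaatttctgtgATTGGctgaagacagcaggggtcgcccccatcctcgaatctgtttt
HLA-DOB: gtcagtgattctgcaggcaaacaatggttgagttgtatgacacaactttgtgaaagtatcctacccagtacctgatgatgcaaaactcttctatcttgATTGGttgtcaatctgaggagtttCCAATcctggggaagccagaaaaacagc
HLA-DMA: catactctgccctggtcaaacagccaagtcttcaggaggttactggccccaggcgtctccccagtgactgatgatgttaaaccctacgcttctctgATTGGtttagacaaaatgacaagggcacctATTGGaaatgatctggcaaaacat
They lie at chr6:33009613-33009762, chr6:32817049-32817198 and chr6:32953123-32953272, all on the minus strand. HLA-DOA holds 1 match, HLA-DOB and HLA-DMA hold 2. In the class II list 12 of 16 promoters of 13 genes had a match within 250 bases, 75%, and 0 of the 16 had the ETS core CGGAAG.

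In control cells the same list differed more between the drugs. There 14 class II genes were also higher with vemurafenib, with a median of 0.44, and the difference between knockout and control cells was called for 12 of 16, all in the direction of a smaller drug difference in the knockouts. This test of knockout minus control called 1486 genes in all, 5.9% of those tested, 720 of them (2.86%) lower in the knockouts. CIITA had a log2 difference of 0.93 in control cells, at 179 to 194 CPM in vemurafenib and 93.9 to 99.97 CPM in trametinib, which is larger than in knockout cells by 0.51 ± 0.04 (adjusted p = 4.5e-12). For HLA-DOA the gap was -0.35 ± 0.07 (adjusted p = 0.000257). For HLA-DMB it was -0.21 ± 0.07 (adjusted p = 0.0426), a call that was lost in 13 of 26 other settings. Of 18 MHC class I genes 3 were higher with vemurafenib in knockout cells and 2 lower. This is a share of 27.8% called, against 19.2% over all genes tested and 27.1% of protein-coding genes, so it is close to background.

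**Figure D3:**
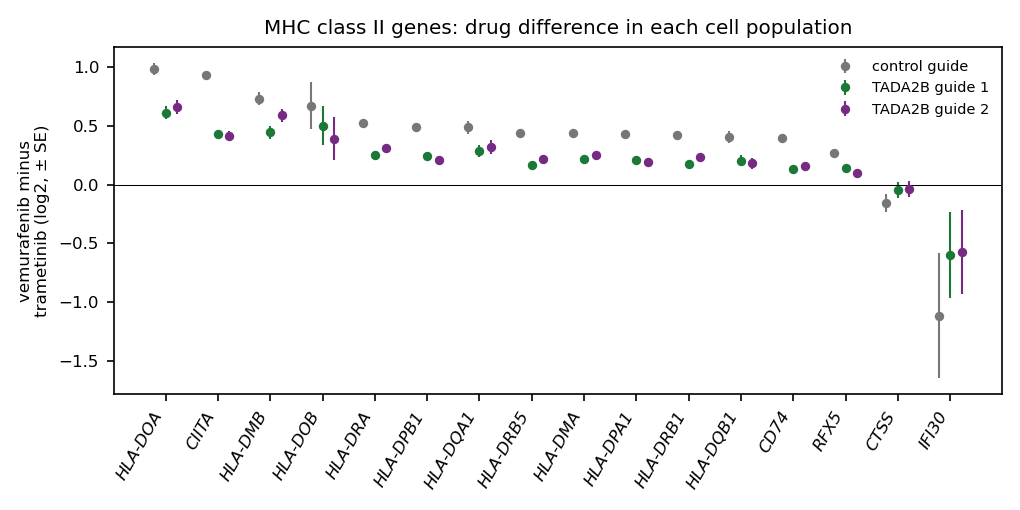
Vemurafenib minus trametinib on the log2 scale for the 16 tested MHC class II genes, ordered by the value in control cells; points are estimates for the control guide, TADA2B guide 1 and guide 2, and bars are standard errors. The grey control points lie above both knockout points for HLA-DOA, CIITA and HLA-DRA, while CTSS and IFI30, at the right, lie below 0.

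Marker lists of melanoma states gave no single direction. Of 22 melanocyte differentiation genes 5 were higher, 3 lower and 14 not called. The share called was 36.4%, against 19.2% over all genes tested and 27.1% of protein-coding genes. MITF, the main regulator of melanocytes, lay at a difference of 0.04 (95% interval from just under 0 to 0.09, adjusted p = 0.239), SOX10 at 0.05 (from just under 0 to 0.10), DCT, an enzyme of melanin synthesis, at -0.06 (-0.10 to -0.01, adjusted p = 0.0943) and MLANA at -0.20 (-0.43 to 0.03), none of them called. DCT became a call in 6 of 21 other settings. CITED1, a MITF-linked cofactor, was lower by -0.99 ± 0.11, and EDNRB, the endothelin receptor of melanocytes, higher by 0.47 ± 0.03. The neural crest-like list was split, 6 higher and 6 lower of 21. TFAP2B (ENSG00000008196, chromosome 6, 50818723 to 50847613, plus strand), a neural crest transcription factor, stood at 140, 139 and 149 CPM with guide 1 in vemurafenib against 41.5, 45.1 and 44.9 CPM in trametinib, and at 78.8, 80.8 and 78.3 CPM against 36.2, 36.6 and 37.2 CPM with guide 2 (log2 1.41 ± 0.02). RXRG, a nuclear receptor, was higher by 1.05 ± 0.08. NGFR, the nerve growth factor receptor of drug-tolerant melanoma, was lower, at 33.2, 34.1 and 33.5 CPM against 52.0, 54.1 and 51.5 CPM with guide 1 and 19.1, 19.0 and 17.2 CPM against 24.1, 28 and 26.0 CPM with guide 2 (log2 -0.57 ± 0.03). Undifferentiated melanoma genes were higher in 17 of 29 and lower in 7 (median 0.11), with AXL, a receptor kinase of that state, slightly lower (-0.12 ± 0.02).

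Receptor kinases and their ligands were lower in 12 of 40 and higher in 6. FGFR2 (ENSG00000066468, chromosome 10, 121478334 to 121598458, minus strand) lay at 0.365 to 0.679 CPM in vemurafenib and 1.33 to 2.77 CPM in trametinib (log2 -1.80 ± 0.13, adjusted p = 2.1e-15), above its DMSO level of 0.149 to 0.278 CPM in either drug. TGFA, a ligand of the EGF receptor, lay at 86.1 to 103 CPM against 40.8 to 45.1 CPM with no overlap (log2 1.14 ± 0.02, adjusted p = 3.95e-39), against 586 to 952 CPM in DMSO. VEGFC, a lymphatic growth factor, was higher by 0.96 ± 0.04 and FLT1, a VEGF receptor, by 0.80 ± 0.08. EGFR itself lay at 18.8 to 26.2 CPM against 14.5 to 22.2 CPM (log2 0.25 ± 0.04), apart within each guide.

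Of 50 extracellular matrix genes 20 were higher and 10 lower, and of 26 TGF-beta targets 14 were higher and 6 lower. ITGB3, an integrin subunit, differed by 1.62 ± 0.04 and ITGB5 by 0.77 ± 0.02. THBS1, a matrix protein that activates TGF-beta, differed by 1.06 ± 0.02, VCAN, a proteoglycan, by 0.94 ± 0.06, and COL8A1, a short-chain collagen, by 0.82 ± 0.04. YAP/TEAD targets were evenly split, with 10 of 27 in each direction: ANKRD1 differed by 0.53 ± 0.05 and IGFBP3, a binding protein of insulin-like growth factors, by -0.60 ± 0.05. Among inflammatory genes 10 of 25 were higher and 3 lower. IL24 differed by 0.81 ± 0.06 and IL1B by -0.85 ± 0.12, while the call of CSF2 (2.62 ± 0.92), which had at most 0.0882 CPM in any of the 12 libraries, was lost in 12 of 21 other settings.

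Among the BCL2 family, which controls cell death, 5 genes of 16 were higher and 5 lower. BCL2, which protects cells, was higher by 1.30 ± 0.10 and BMF, which promotes death, lower by -0.63 ± 0.02, both apart in all 12 libraries. BCL2A1, which also protects cells, was lower (-0.35), and so was HRK, which promotes death (-0.31). The called members therefore gave no single direction for survival. Of 27 SAGA genes 2 were called and 25 were not. This is a share of 7.41%, below the 19.2% over all genes tested and the 27.1% of protein-coding genes. The called genes were KAT2B by 0.21 ± 0.02 and KAT2A by 0.13 ± 0.03, and they encode the alternative acetyltransferases of the complex. Targets of the aryl hydrocarbon receptor, a sensor of small aromatic molecules, were split, 4 higher and 2 lower of 9. AHR, the receptor, was higher by 0.61 ± 0.04 and its target CYP1A1 by 0.32 ± 0.06, and CYP1B1, another target, was lower by -0.58 ± 0.05. SLC7A5 and SLC3A2, the subunits of an amino acid transporter under ATF4, were lower by -0.58 ± 0.02 and -0.46 ± 0.02. Of 12 ABC transporters 7 were lower, with ABCC4 at -0.42 ± 0.02, but ABCC3 was higher by 1.22 ± 0.04.

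**Figure D4:**
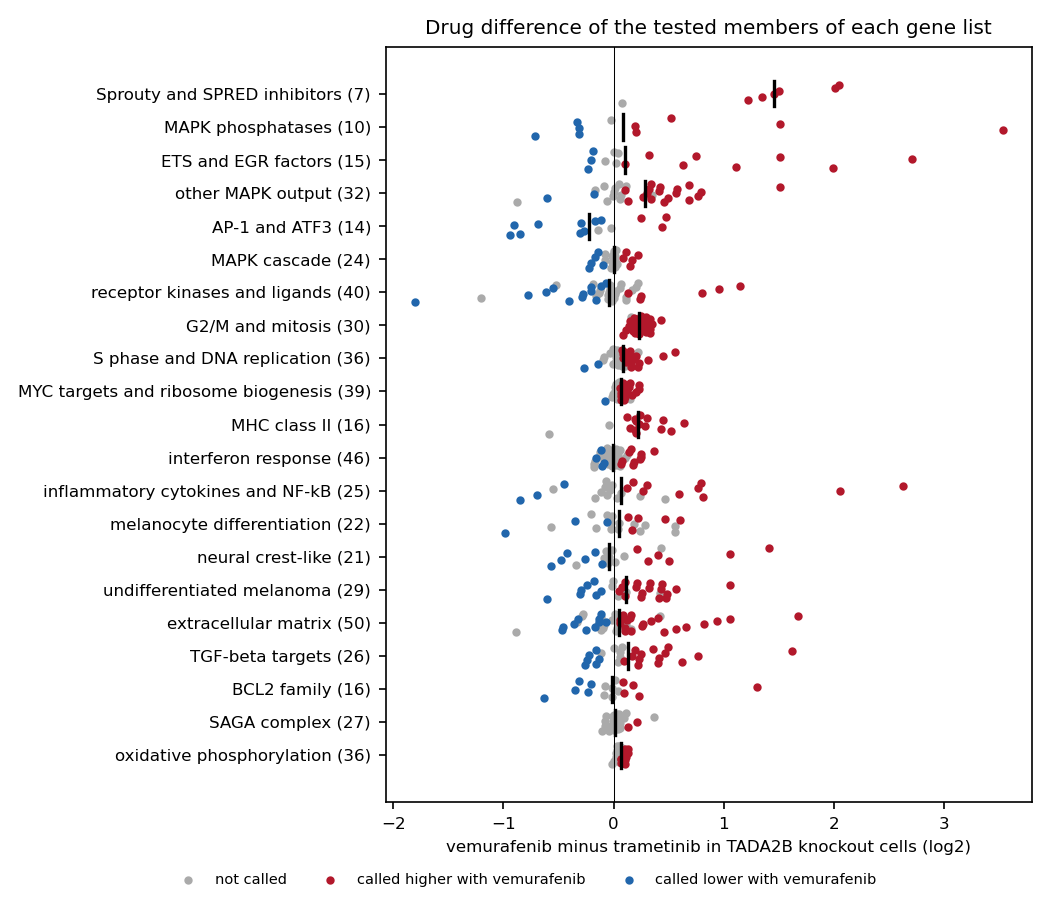
Vemurafenib minus trametinib in knockout cells on the log2 scale for the tested members of 21 gene lists (number tested in brackets); each point is a gene, red called higher, blue called lower, grey not called, and black bars are medians. Sprouty and SPRED genes lie furthest to the right with a median of 1.46, the G2 and mitosis genes form a narrow group just above 0, and AP-1 genes lie mostly below 0.

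Markers of other cell types were checked in the 12 libraries. The keratinocyte gene KRT1 had no count at all, and IVL, DSG3, DPT, COL1A2, MS4A1, CD3E and CLDN5 stayed at or under 0.110 CPM. Other genes of the same lists were clearly present, such as the keratins KRT18 (91.2 to 135 CPM) and KRT8 (70.1 to 124 CPM) and the laminin gene LAMB3 (98.9 to 168 CPM) among the keratinocyte markers. Of the fibroblast markers PDGFRB lay at 41.2 to 60.6 CPM and LUM at 30.1 to 45.9 CPM, of the endothelial markers ENG at 59.7 to 79.0 CPM, and of the leukocyte markers LYZ at 11.9 to 18.4 CPM and ITGAX at 11.2 to 19.1 CPM. Summed over their lists, keratinocyte markers held 671.3 to 839.7 CPM with vemurafenib and 655.5 to 834.7 CPM with trametinib, with 2 higher and 8 lower of 19 tested. Endothelial markers held 84.0 to 100.2 CPM and 80.9 to 95.5 CPM, with 3 higher and 2 lower of 9. Fibroblast markers held 136 to 162 CPM and 143 to 181 CPM, with 0 higher and 6 lower of 12 tested. Leukocyte markers were the list whose sums did not overlap, at 37.7 to 42.4 CPM with vemurafenib and 29.6 to 35.0 CPM with trametinib; of its 10 tested genes 2 were higher and 2 lower. Melanoma line markers held 2095 to 2485 CPM and 2040 to 2338 CPM, although PMEL and MLANA, pigment cell antigens, were low, at no more than 2.34 CPM. The part of these markers in the differences above was not tested.

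The guides differed in the size of the drug difference in few genes. The test of guide 2 minus guide 1 called 47 genes, 0.187% of those tested, 15 higher (0.0595%) and 32 lower (0.127%) with guide 2, and at an unadjusted p under 0.05 it gave 1844 genes. This count depends strongly on single libraries: it was 263 without replicate 3 of guide 2 in vemurafenib and 31 without replicate 2 of guide 2 in trametinib. STING1 (ENSG00000184584, chromosome 5, 139475534 to 139482935, minus strand), the innate immune adaptor that senses cytosolic DNA through cyclic dinucleotides, stood at 66.1, 68.2 and 69.5 CPM in vemurafenib and 36.4, 37.2 and 36.7 CPM in trametinib with guide 1. With guide 2 the values were 61.7, 64.3 and 58.4 CPM against 22.3, 25.5 and 22.9 CPM, and the guides lay further apart with trametinib than with vemurafenib (guide 2 minus guide 1 of the log2 difference 0.50 ± 0.06, adjusted p = 2.35e-06). TFAP2B had the opposite sign, -0.59 ± 0.05, and its guides lay further apart with vemurafenib. DUSP6 was higher with vemurafenib by 3.91 with guide 1 and 3.15 with guide 2, a gap of -0.75 ± 0.16 (adjusted p = 0.0209) that was lost in 6 of 19 other settings.

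Set beside control cells, the knockouts shared much of the drug difference. In control cells 4117 genes (16.3%) were called, 2212 higher (8.78%), 1905 lower (7.56%) and 362 at least 2-fold (1.44%; 207 with the filter at 1 CPM), and 2246 genes had a call of the same sign in control and in knockout cells, which is 46.5% of the knockout calls and 54.6% of the control calls. Across the 14252 genes of average log2 CPM of at least 1, the Pearson r was 0.71, given as a description of genes that are not independent replicates. The test of knockout minus control called 766 genes higher and 720 lower, 97 of them at least 2-fold (0.385%; 59 with the filter at 1 CPM). Its higher count fell to 477 without replicate 2 of control cells in vemurafenib. Of the 1486 genes 1062 had the larger difference in control cells and 424 in knockout cells, and 80 were called in both with opposite signs. The control difference rests on fewer libraries than the knockout difference, which averages both guides, so it is less precise. Among genes picked by this test, the less precise difference can come out larger for that reason alone. How much of the uneven split comes from this was not tested.

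CDH11 was called in the knockouts and not in control cells, and the test of the difference passed. In control cells it stood at 1.43, 1.13 and 1.21 CPM with vemurafenib and 1.33, 0.903 and 1.07 CPM with trametinib (log2 0.19, adjusted p = 0.482), and the gap to the knockouts was 1.79 ± 0.18 (adjusted p = 2.49e-10). TFPI2 (ENSG00000105825, chromosome 7, 93885396 to 93890991, minus strand), an inhibitor of proteases, changed sign: it was higher with vemurafenib in knockout cells (log2 0.68 ± 0.05, 5.69 to 7.06 CPM against 3.25 to 4.79 CPM) and lower in control cells (-0.42, 5.77 to 6.19 CPM against 7.48 to 8.40 CPM). TM4SF18, a tetraspanin-like protein, and SH2D1B, an adaptor of lymphocytes, did the same, with gaps of 1.31 ± 0.16 and 1.26 ± 0.23. For CYTH4, a guanine nucleotide exchange factor, and RASEF, a RAB-like GTPase, the drug difference was -1.94 and -1.12 in control cells and -0.37 and 0.12 in knockout cells, the last of these not called. CYTH4 was scarce in control cells, with means of 0.154 CPM in vemurafenib and 0.596 CPM in trametinib. Its control difference and its gap therefore rest on few counts.

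In the other direction, ZNF488 (ENSG00000265763, chromosome 10, 47365496 to 47384273, minus strand), a zinc finger factor of the neural lineage, was higher with vemurafenib by 2.23 in control cells and by 0.48 ± 0.11 in knockout cells. With vemurafenib ZNF488 lay at 2.40 to 3.12 CPM in control cells and 1.52 to 2.42 CPM in knockout cells, and with trametinib at 0.475 to 0.759 CPM in control cells and 1.24 to 1.75 CPM in knockout cells. The populations overlapped slightly with vemurafenib and did not overlap with trametinib, where the knockouts were higher. SH3TC2, a protein of Schwann cells, was higher with vemurafenib in both, by 2.74 in control cells and 1.31 ± 0.04 in knockout cells, and so was RUBCNL, an autophagy protein, by 2.90 and 1.30 ± 0.11. SORL1, a sorting receptor, was higher by 1.32 in control cells and at -0.08 ± 0.05 in knockout cells, where it was not called. STAT4 (gap -1.22 ± 0.23), a cytokine signalling factor, and RNF152 (-1.28 ± 0.19), a lysosomal ubiquitin ligase, complete the 6 named genes of this direction.

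The feedback genes were not uniform in this test. The drug difference was larger in knockout cells for ETV5 by 0.95 ± 0.10, SPRED3 by 0.67 ± 0.06, SPRY4 by 0.66 ± 0.11 and DUSP4 by 0.46 ± 0.04, and smaller for SPRY2 by 0.71 ± 0.07. DUSP5 changed sign, being higher with vemurafenib in knockout cells (0.52) and lower in control cells (-0.36). Its gap was 0.88 ± 0.07 (adjusted p = 7.5e-14). For DUSP6 the gap was -0.19 ± 0.13 (adjusted p = 0.523), not called, and for SPRY1 -0.13 ± 0.32 (adjusted p = 0.912), not called. Of the 7 Sprouty and SPRED genes 4 had a larger difference in the knockouts and 1 a smaller one, against 766 (3.04%) and 720 over all genes tested.

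**Figure D5:**
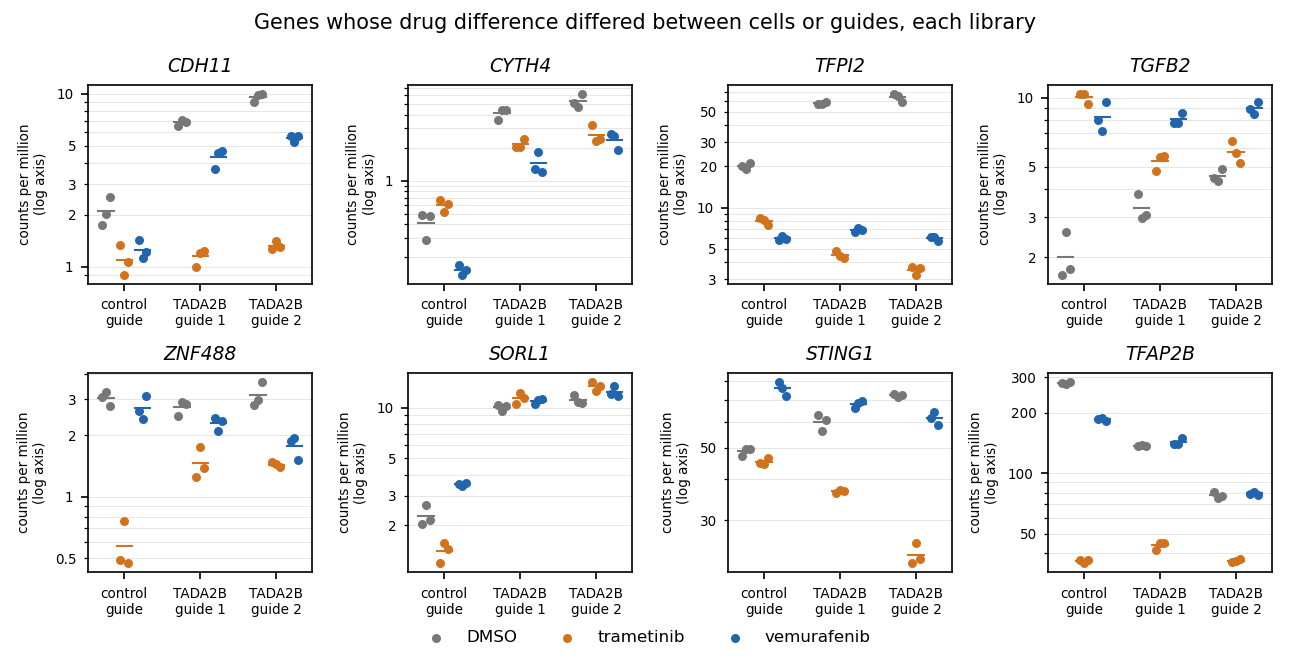
CPM (log axis) of 8 genes whose drug difference differed between knockout and control cells or between the guides, in each library, by cell population and treatment; points are libraries and short lines are means of 3. CDH11 lies higher with vemurafenib than with trametinib in both knockout populations and overlaps between the drugs in control cells, TFPI2 and TGFB2 change the order of the drugs between control and knockout cells, ZNF488 and SORL1 differ more between the drugs in control cells, and STING1 with trametinib is lowest with guide 2.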

How the data were processed

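RNA from A375 cells was sequenced as poly(A) RNA with a stranded kit, per the labels' protocols. Reads were converted with bcl2fastq, aligned with HISAT2 to hg38 and counted with HTSeq, per the submitters' processing notes; versions, gene annotation and strand setting were not given in the sources used here. The authors deposited whole-number counts for 58721 genes in 27 libraries, not normalized. Without the strand setting, reads of overlapping antisense genes cannot be told apart.

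Counts were filtered with edgeR's filterByExpr, which left 25199 genes, scaled with TMM factors (0.866 to 1.09) and fitted with robust quasi-likelihood (edgeR 4.0.16, limma 3.58.1, R 4.3.3), with 9 group means over all 27 libraries and 18 residual degrees of freedom. The guide entered as the within-guide contrast. A call is a Benjamini-Hochberg adjusted p under 0.05. On simulated data of 24833 genes, this comparison recovered 86% of genes changed 1.2-fold and 100% of those changed 1.5-fold, 2-fold or 4-fold (50 genes each). The changed genes were drawn only from those that average at least 1 on the log2 CPM scale. Recovery at lower levels was not simulated. Tables and figures used Python 3.11.15, pandas 2.3.3, numpy 2.4.6 and matplotlib 3.10.9.

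Named are the 12 largest rises and 12 largest falls among protein-coding genes that average at least 1 on the log2 CPM scale over all 27 libraries, were called with each guide in 1 direction and had the drugs' libraries apart within each guide. Also named are 6 genes per direction for knockout against control, 4 per direction for the guides, 2 to 4 called members per list with the largest change, and genes fixed by name. The comparison, the 46 gene lists and the tests were chosen with earlier results of these data known. Gene types and coordinates are from GENCODE 29, promoters from RefSeq (GRCh38.p14), matched by symbol. Libraries of a group differed by more than counting noise (chi-square per degree of freedom 2.94 to 12.0), so none was merged. Alternatives were other scalings, filters and tools (DESeq2 1.42.0, limma voom), fewer libraries, a replicate block and leaving out each library.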

Additional observations from a re-analysis of the deposited data

Results flagged for a closer look

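The vemurafenib minus trametinib difference was itself tested for a difference between knockout and control cells, and 1486 genes passed. Of the named genes 65 passed, 37 with a higher and 28 with a lower value in knockout cells, and each value here is knockout minus control on the log2 scale. Among ERK feedback and AP-1 genes the higher values were ETV5 (0.95), SPRED3 (0.67), SPRY4 (0.66), ETV4 (0.53), PHLDA1 (0.49), DUSP4 (0.46), ATF3 (0.41), ETV1 (0.41), FOS (0.38), CCND1 (0.31), FOSL2 (0.21), DUSP5 (0.88) and IER3 (0.28). For ATF3, FOS and FOSL2, which were lower with vemurafenib in both populations, a positive value means a smaller fall in the knockouts. For JUN, also lower in both, a negative value means a larger fall. For DUSP5 the positive value is a change of sign, with -0.36 in control cells and 0.52 in the knockouts. The lower values among these genes were SPRY2 (-0.71), MYC (-0.54) and JUN (-0.15), and the call was lost in 13 of 26 other settings for MYC, in 3 for JUN and in 2 for IER3.

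The other genes with a higher value were CDH11 (1.79), CYTH4 (1.57), TM4SF18 (1.31), SH2D1B (1.26), RASEF (1.23), TFPI2 (1.10), MAP1LC3C (1.00), TGFB2 (0.91), BCL2 (0.79), LRRC15 (0.60) and BEND3 (0.56), and further IL24 (0.52), MICAL2 (0.52), STING1 (0.39), RRM2 (0.38), ABCC3 (0.34), ITGB3 (0.34), GINS3 (0.33), LRAT (0.31), VEGFC (0.31), TGFA (0.24) and ODC1 (0.18). In CYTH4, MAP1LC3C, LRRC15, BEND3, MICAL2, GINS3 and LRAT the drug difference was negative in control cells and in the average of the knockout guides. For them a positive value means a smaller fall in that average. In BEND3 and MICAL2 the fall came mostly from guide 1, with -0.68 and -0.40, against -0.06 and 0.01 with guide 2. The call of ODC1 was lost in 12 of 26 other settings, that of ABCC3 in 2 and that of GINS3 in 1. DKK2 (2.05) and RNF43 (5.46), regulators of WNT signalling, also passed, with the call lost in 10 and 1 of 24 other settings. RNF43 had no count in control cells with vemurafenib and at most 0.0679 CPM with trametinib, so its fitted value is no measure of size.

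Lower values in the knockouts included 2 MHC class II genes, HLA-DOA (-0.35) and HLA-DMB (-0.21), and CIITA (-0.51), the regulator of that gene family. The other genes with a lower value were ABCC4 (-0.15), THBS1 (-0.19), SFRP1 (-0.19), NUPR1 (-0.25), EGFR (-0.28), CD24 (-0.35), BMF (-0.36), KAT2B (-0.42), EDNRB (-0.44), GNAZ (-0.52) and C10orf90 (-0.62), and further EOMES (-0.92), TFAP2B (-0.93), OVGP1 (-1.09), IGFBP3 (-1.09), STAT4 (-1.22), RNF152 (-1.28), SORL1 (-1.40), WNT5B (-1.42), SH3TC2 (-1.43), RUBCNL (-1.60) and ZNF488 (-1.75). In ABCC4, NUPR1, CD24, BMF, GNAZ and EOMES the drug difference was negative in both populations, so a lower value means a larger fall in the knockouts. In genes with a positive difference in both, such as THBS1 and EDNRB, it means a smaller rise. Of these lower values, the call was lost in 15 of 26 other settings for EGFR, in 13 for HLA-DMB, in 4 for NUPR1, in 2 each for ABCC4 and WNT5B and in 1 for CD24.

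The drug difference was also tested for a difference between the guides, and 47 genes passed. Among the named genes guide 2 minus guide 1 was positive in BEND3 (0.62), STING1 (0.50), IER3 (0.46), MICAL2 (0.41), FOSL2 (0.32), DUSP4 (0.28), PHLDA1 (0.27) and THBS1 (0.27). It was negative in KAT2B (-0.24), EDNRB (-0.33), COL8A1 (-0.44), C10orf90 (-0.55), RELL1 (-0.55), TFAP2B (-0.59) and DUSP6 (-0.75). Only 8 of these genes were run under other settings: BEND3, STING1, IER3, MICAL2, DUSP6, TFAP2B, RELL1 and C10orf90. Among them the call was lost in 6 of 19 other settings for BEND3 and for DUSP6, and in 1 for IER3, RELL1 and C10orf90. Whether the other genes listed here keep their calls was not tested.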

How the results depend on the processing

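The count of called genes for vemurafenib against trametinib in knockout cells, 4826, lay between 4481 and 4937 under the other scalings, tools, filters and library sets, and between 4330 and 5101 with 1 library left out. The number called at least 2-fold dropped from 362 to 167 with a filter of at least 1 CPM in at least 3 libraries, which tests fewer genes; for control cells it was then 207 and for knockout minus control 59, from 97. For knockout minus control the count lay between 1054 and 1690 with 1 library left out, and its higher genes between 477 (without control vemurafenib replicate 2) and 919 (without guide 2 vemurafenib replicate 1), from 766. The guide difference was the least stable count: 47 became 97 with DESeq2's Wald test and 79 without a filter on low counts, and lay between 31 (without guide 2 trametinib replicate 2) and 263 (without guide 2 vemurafenib replicate 3) with 1 library left out; the cause was not tested.

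Deviations from the group mean were correlated between libraries of different groups, over all genes tested. For same-numbered libraries the correlations were -0.05 to 0.05, and for other numbers -0.07 to 0.07. Every same-number correlation was over 0.1 in 0 of 36 group pairs. Many of these genes have few counts, so the check shows no strong pairing by number but cannot exclude a weak one. With the replicate number as a replicate block the count was 4764 in knockout cells, 4064 in control cells, 1443 for knockout minus control and 45 for the guides. No value of a named gene changed sign among called results. Of the 117 named genes called in knockout cells 113 kept the call in every alternative run, the exceptions being CDC45, CSF2, ABCG2 and DKK2, and of 65 called for knockout minus control 51 kept it, the exceptions being CD24, IER3, EGFR, JUN, MYC, GINS3, ODC1, HLA-DMB, NUPR1, ABCC3, ABCC4, WNT5B, RNF43 and DKK2. For the guides 3 of 8 kept it, which were STING1, MICAL2 and TFAP2B. Medians moved by more than 0.1 for small lists without a filter on low counts: aryl hydrocarbon receptor targets 0.17 in knockout cells and 0.07 for knockout minus control, endothelial markers 0.00 and leukocyte markers -0.20. Levels under 1 CPM with both drugs, as for EGR2, CXCL8, SERPIND1 and CSF2, limit the precision of those differences. The same holds for CYTH4 and DKK2 in control cells.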

Other observations

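WNT signalling genes, which encode secreted ligands, their Frizzled and LRP receptors and their inhibitors, were among the groups not described above. Of 35 tested members, 14 were higher with vemurafenib in knockout cells and 5 lower, with a list median of 0.10 against 0.01 over all genes tested. WNT5B, a ligand, fell by 1.04 ± 0.17 on the log2 scale, and its level was 1.05, 0.708 and 0.838 CPM with guide 1 in vemurafenib against 2.12, 1.76 and 1.77 CPM in trametinib. With guide 2 it was 1.09, 1.26 and 0.624 CPM in vemurafenib and 2.08, 1.92 and 1.84 CPM in trametinib, so that the 6 libraries of each drug did not overlap. Both drugs left WNT5B above the 0.106 to 0.343 CPM of the knockout DMSO libraries. SFRP1, a secreted WNT inhibitor, was higher by 0.59 ± 0.02, with 67.3 to 83.2 CPM in vemurafenib and 46.4 to 53.6 CPM in trametinib, and both drugs left it below the 252 to 360 CPM of DMSO. Of 31 matrix proteases and inhibitors 14 were higher and 6 lower.

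Hypoxia response genes were split, with 5 of 25 higher and 7 lower. EGLN3, a prolyl hydroxylase that marks hypoxia-inducible factor for destruction, fell by 0.54 ± 0.08, from 6.32 to 7.80 CPM in trametinib to 4.32 to 5.52 CPM in vemurafenib. ANGPTL4, a secreted inhibitor of lipoprotein lipase, was higher by 0.85 ± 0.10, with 1.84 to 2.59 CPM in vemurafenib against 0.978 to 1.61 CPM in trametinib. Of 39 genes of ATF4 and the unfolded protein response 9 were higher and 10 lower, among them the amino acid transporter subunits SLC7A5 (-0.58) and SLC3A2 (-0.46) on one side and the secreted stress factor GDF15 (0.43) on the other. Each of these genes was called by edgeR's quasi-likelihood test, in the same way as the genes above.

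The remaining lists are given by counts of higher and lower genes, to be read against the 19.2% called over all genes tested and 27.1% of protein-coding genes. The share called was 21.7% for cholesterol synthesis, 26.7% for the ATAC complex, 28% for p53 targets, 30.4% for interferon response and 31.7% for lysosome genes, close to that background. The counts were 5 and 2 of 25 p53 targets, 10 and 4 of 46 interferon response genes, 5 and 0 of 23 cholesterol synthesis genes, and 5 and 2 of 14 fatty acid synthesis genes. Glycolysis had 8 and 5 of 24, lysosome 6 and 7 of 41, heat shock 9 and 2 of 22, NRF2 targets 7 and 6 of 24, and FOXO targets and insulin signalling 9 and 7 of 24. The ATAC complex, another histone acetyltransferase complex, had 3 and 1 of 15. Semaphorins and axon guidance genes had 12 and 15 of 45, and potassium and calcium channels 4 and 7 of 29.

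Called genes were more frequent among protein-coding genes (27.1% of 15826) than among lincRNAs (9.81% of 2192) and antisense genes (5.03% of 2048), a description of genes that also differ in level. Noncoding RNAs with large differences were LINC02015 (4.02), LINC02454 (3.04) and MIR3681HG (2.92, with 2.23 for guide 1 and 3.61 for guide 2), and on the lower side IGFL2-AS1 (-0.95), LINC02984 (-0.94) and LINC02551 (-0.93), named after their values were seen. Reads of genes that overlap on opposite strands cannot be told apart here.

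The drug difference was called with opposite signs in knockout and control cells, and with a called difference between them, in 80 genes. The values in knockout and control cells were -0.53 and 0.68 for DLX5, a homeobox transcription factor, and -0.29 and 0.57 for its relative DLX3. For IL7R, the interleukin-7 receptor, they were -0.09 and 0.82, for TGFBR3, a TGF-beta co-receptor, -0.14 and 0.72, and for the collagen gene COL12A1 -0.25 and 0.40. These 5 genes were chosen after their values were seen.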
